A study of Mus musculus with 34 samples.

Results

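The 6 rRNA-depleted liver libraries examined here were prepared by rRNA digestion and differed in the ramp rate of the PCR that amplified them: 3 were amplified with a fast ramp and 3 with a slow ramp. They were chosen by their labelled depletion method and ramp rate from 34 libraries in all, and each fast library was matched to the slow library of the same labelled fragment length, which gave 1 long, 1 medium and 1 short pair. All 6 came from the liver RNA of a single wild-type C57BL/6J mouse aged 12 weeks, whose sex the labels give in conflicting ways. Every digestion library started from 200 ng of total RNA, was depleted with the Ribo-Zero Plus version of Illumina's stranded total RNA ligation kit with its adapters exchanged for xGen adapters that carry unique molecular identifiers, and was amplified for 13 cycles. The study set PCR ramp rate, fragment length and rRNA removal method against each other. The 3 digestion libraries with a medium ramp were used to estimate the spread and as an intermediate step, and polyA-selected, pull-down and unselected libraries of the same animal served for comparison. What the labels' slow, medium and fast mean in degrees per second, and long, medium and short in bases, is not given in the sources used here. The libraries are technical preparations of 1 animal, and each ramp and length combination was prepared once. The p-values therefore measure only the spread between these preparations. That spread includes any ramp effect that varies with fragment length.

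In rRNA digestion, DNA probes are annealed to ribosomal RNA and RNase H cuts the RNA of the hybrids. The adapter-ligated cDNA that remains is amplified by PCR, in which each cycle melts the strands, anneals primers and extends them. Ramp rate is the speed at which the thermocycler moves between those temperatures, and DNA rich in G and C melts at a higher temperature than DNA rich in A and T, so GC content is the property most often examined when PCR conditions differ.

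The 6 libraries held between 20033262 and 30169379 estimated counts each, and their normalization factors lay between 0.992 and 1.01 across the digestion libraries. Albumin (Alb), the main plasma protein made by hepatocytes, held 52382, 54874 and 56502 CPM (counts scaled to library size) in the long, medium and short slow libraries and 52506, 55442 and 56823 CPM in the fast ones. It was abundant in every library, as in liver, and its levels differed between fragment lengths more than between ramps. Markers of Kupffer cells summed to 253.7 to 271.1 CPM in the slow libraries and 254.7 to 274.7 CPM in the fast ones. Of 49 tested markers of Kupffer, endothelial, stellate, bile duct, erythroid and lymphoid cells, 0 passed edgeR's test between ramps (0.388% of all tested genes did), 1 had an unadjusted p under 0.05 and 0 were called by DESeq2.

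Stretches of 4 coding sequences show the range of base composition among the genes described here. Cebpb was the annotated coding gene with the largest smallest-pair fall, and Rps27 the one with the largest smallest-pair rise. Jund, a second GC-rich gene that fell, and mt-Co2, a gene that rose, were added after their values were seen. Each line gives the 120 coding bases with the most G and C within one exon, or the longest coding exon segment where that was shorter, with G and C in capitals, read 5′ to 3′ on the coding strand from GENCODE M21 transcripts of build GRCm38.
Cebpb: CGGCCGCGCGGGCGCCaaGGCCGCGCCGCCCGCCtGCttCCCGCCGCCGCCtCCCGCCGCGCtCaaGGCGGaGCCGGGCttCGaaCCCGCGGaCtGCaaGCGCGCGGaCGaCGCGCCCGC
Jund: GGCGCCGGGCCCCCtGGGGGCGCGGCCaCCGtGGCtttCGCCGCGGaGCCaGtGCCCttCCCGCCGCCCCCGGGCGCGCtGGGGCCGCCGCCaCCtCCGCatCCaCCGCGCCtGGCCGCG
Rps27: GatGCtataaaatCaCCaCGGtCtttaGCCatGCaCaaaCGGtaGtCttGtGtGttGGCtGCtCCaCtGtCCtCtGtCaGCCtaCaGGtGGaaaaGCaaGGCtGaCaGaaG
mt-Co2: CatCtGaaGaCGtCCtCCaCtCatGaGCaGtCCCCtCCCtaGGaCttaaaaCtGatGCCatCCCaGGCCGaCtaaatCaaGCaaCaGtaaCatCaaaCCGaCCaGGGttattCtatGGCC
The Cebpb stretch lay in its single exon at chr2:167689354-167689473 on the plus strand and was 83.3% G and C. The Jund stretch lay in its single exon at chr8:70699634-70699753 on the plus strand and was 85% G and C. Rps27 was represented by 111 bases of exon 3 of 4 at chr3:90212934-90213044 on the minus strand, of which 49.5% were G or C. The richest stretch of mt-Co2, at chrM:7476-7595 on the plus strand, had 60 G or C among its 120 bases.

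Few genes were called between the fast and the slow ramp, and in edgeR's test most of them were lower with the fast ramp. In edgeR's quasi-likelihood test, 59 of 15199 tested genes (0.388%) passed a Benjamini-Hochberg adjusted p of 0.05, of which 46 (0.303%) were lower and 13 (0.0855%) were higher with the fast ramp. At an unadjusted p under 0.05 the number was 1014. DESeq2, fitted without a low-count filter on 25055 genes, called 26 higher and 27 lower. Fitted on the same 15199 genes, it called 13 higher and 18 lower, of which 24 were among the 59. DESeq2 values of single genes given here come from the fit of 25055 genes unless stated. The scaling centres the differences, and the median over all tested genes was 0.002 on the log2 scale. Within single pairs, 96.4% of the 10267 genes with a mean of at least 100 counts per library lay within 1.2-fold in the long pair, 96.1% in the medium pair and 95.5% in the short pair.

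**Figure D1:**
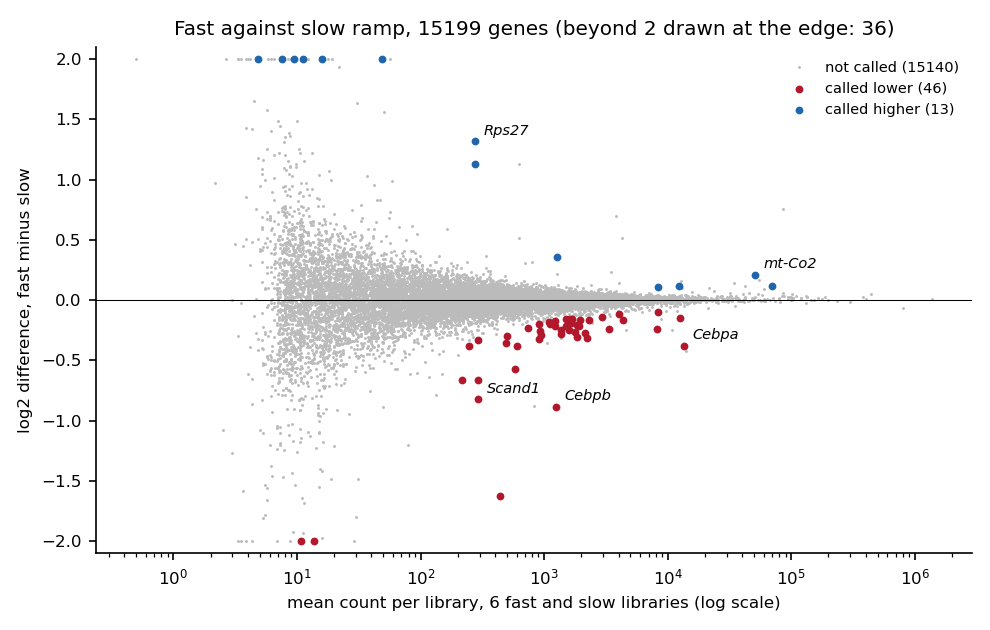
Each point is one of 15199 tested genes, with its mean count over the 6 fast and slow libraries on a log axis and its fitted log2 difference, fast minus slow, on the vertical axis. The 46 called lower genes (red) and the 13 called higher genes (blue) stand out from the 15140 others (grey), and the 36 genes beyond a difference of 2 are drawn at the edge.

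Genes were also sorted by the size of the shift in each pair, with no test. At least 1.2-fold in the same direction in all 3 pairs was reached by 14 of 10267 genes (0.136%) downward and by 6 (0.0584%) upward. Without a minimum size, 13.6% of all tested genes were lower and 14% were higher in all 3 fast libraries than in their slow partners. The fast and slow libraries did not overlap, with fast lower, in 4.1% of tested genes and, with fast higher, in 3.66%. Against those shares, 45 of the 46 called lower genes had the same direction in all 3 pairs and 36 of them had no overlap. The same contrast chose these genes, so nothing is read from those counts. Gm14097 (smallest pair 0.28 on the log2 scale) and Foxq1 (0.28) lay just inside the 1.2-fold limit, and Taf10 (0.26) and Myct1 (0.25) lay just outside it.

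The largest called fall in an annotated gene with a mean of at least 100 counts was that of Cebpb (ENSMUSG00000056501, chr2:167688915-167690418), a leucine zipper transcription factor of the C/EBP family that acts in the acute phase response and in liver metabolism. Its level was 51.5, 69.7 and 73.1 CPM in the long, medium and short slow libraries and 27, 37.1 and 41.8 CPM in the fast ones. Every fast library lay below every slow library. The mean fell from 64.8 ± 11.6 to 35.3 ± 7.56 CPM (SD, n = 3 each), and the fitted difference was -0.88 on the log2 scale (SE 0.037, edgeR adjusted p = 2.55e-09). Its fall was of about the same size in the long (-0.93), medium (-0.91) and short (-0.81) pairs.

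Cebpa (ENSMUSG00000034957, chr7:35119293-35121928), the C/EBP member that maintains the differentiated state of hepatocytes, fell as well. It stood at 547.2, 627.2 and 654.8 CPM in the long, medium and short slow libraries and at 396.2, 497.9 and 519.9 CPM in the fast ones. The groups did not overlap. The fitted difference was -0.38 (SE 0.030, edgeR adjusted p = 1.08e-05). Both genes consist of 1 exon, with an exonic GC content of 67.2% for Cebpb and 62.6% for Cebpa against a median of 48.9% over all tested genes. Of the 20 hepatocyte transcription factors listed, these were the 2 that passed the test, which 0.388% of all tested genes did. Among the others, Foxa2, a forkhead factor of liver specification, had a log2 difference of -0.09, and Hnf4a, the nuclear receptor central to hepatocyte identity, stood at 0.00.

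In Scand1, Zfp771 and Tmem238 the measured fall was largest in the long pair and smallest in the short pair. Scand1 (ENSMUSG00000046229, chr2:156311847-156312704), a SCAN domain protein, had 15.6, 15.1 and 13.0 CPM in the long, medium and short slow libraries and 5.81, 8.85 and 10.6 CPM in the fast ones. The fast libraries were all lower, with the widest gap in the long pair. Its log2 difference was -1.42 in the long, -0.77 in the medium and -0.29 in the short pair, and -0.82 in the fit (SE 0.15, edgeR adjusted p = 0.02). Zfp771 (ENSMUSG00000054716, chr7:127244274-127254803), a zinc finger protein, went from 13.8, 14.6 and 14.1 CPM with the slow ramp to 6.79, 9.50 and 10.9 CPM with the fast ramp. The slow libraries were nearly level across lengths, and the fast ones were lowest for long fragments. Its pairs differed by -1.01, -0.61 and -0.37 (fit -0.66, SE 0.097, edgeR adjusted p = 0.00433). Tmem238 (ENSMUSG00000030431, chr7:4784557-4789656), a small membrane protein, showed -1.11, -0.60 and -0.32 in the same order, at 10.0, 10.6 and 10.7 CPM with the slow and 4.6, 6.94 and 8.58 CPM with the fast ramp (fit -0.66, edgeR adjusted p = 0.0351). Each ramp and length combination was prepared once, so a ramp-by-length difference within 1 gene was not tested. DESeq2 did not call Scand1 (adjusted p = 1) or Tmem238 (adjusted p = 0.31), and leaving out single libraries ended the call of Scand1 in 3 of 6 cases (the slow long, slow medium or fast medium library, edgeR adjusted p up to 0.158) and of Tmem238 in 5 of 6 (edgeR adjusted p up to 0.191).

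**Figure D2:**
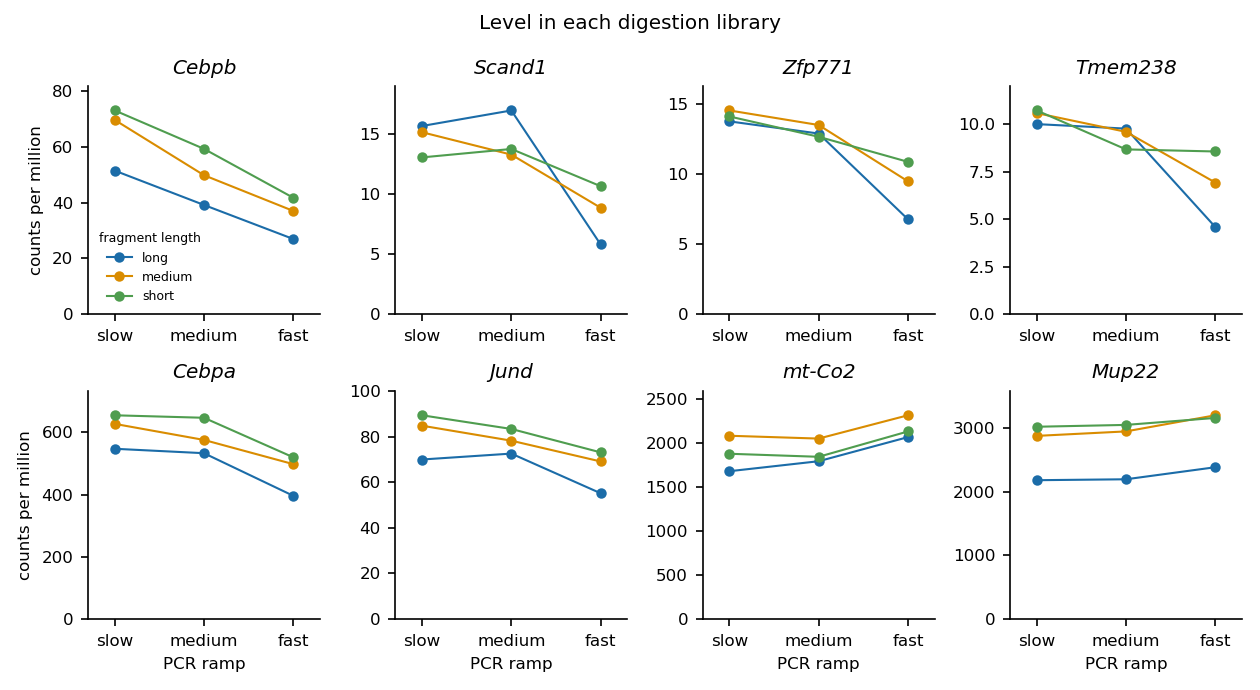
Level of 8 genes in CPM (vertical axes from 0) in each of the 9 digestion libraries, by PCR ramp, with one line per fragment length. Cebpb stepped down from slow to medium to fast at each length, Scand1, Zfp771 and Tmem238 were lowest in the long fast library, and mt-Co2 and Mup22 were higher in each fast library than in its slow partner.

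Further genes of the same rule were of varied function. Jund (ENSMUSG00000071076, chr8:70698949-70700616), a subunit of the AP-1 transcription factor, had 69.95, 84.8 and 89.3 CPM with the slow ramp and 55.2, 69.1 and 73.1 CPM with the fast ramp. The groups overlapped because the long libraries were low with both ramps, but each pair fell by nearly the same amount (-0.34, -0.29 and -0.29, fit -0.31, edgeR adjusted p = 0.000715). Foxq1, a forkhead transcription factor, fell from 21.4, 22.4 and 22.2 CPM to 17.0, 18.4 and 18.3 CPM (fit -0.30, edgeR adjusted p = 0.00671). Map1lc3a, a ubiquitin-like protein of the autophagosome membrane, fell from 26.3, 27.9 and 26.2 CPM to 20.3, 20.3 and 21.4 CPM (fit -0.38, edgeR adjusted p = 0.00115). In both of them every fast library lay below every slow one. Pcgf6, a Polycomb group RING finger protein, fell by 0.38 and Gas1, a membrane-anchored co-receptor of hedgehog signalling, fell by 0.35 on the log2 scale. Hand2, a basic helix-loop-helix transcription factor, was lower by 0.79, 0.44 and 0.31 in the long, medium and short pairs but did not pass the test (fit -0.52, edgeR adjusted p = 0.176). With DESeq2 the calls of Foxq1 (adjusted p = 1), Pcgf6 (1) and Gas1 (0.851) were lost, and that of Map1lc3a was lost on 25055 genes (0.0815) and held on the 15199 genes (0.0258). Leaving out 1 library ended the call of Foxq1 in 2 of 6 cases, both in the long pair, and those of Pcgf6 and Gas1 in 5 of 6 (edgeR adjusted p up to 0.0669, 0.157 and 0.174).

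A gene with a near-identical copy and an identifier without annotation were also among the largest shifts. Rnaset2a, which encodes a secreted ribonuclease of the T2 family, had 29.5, 25.9 and 26.1 CPM with the slow and 18.3, 17.9 and 18.8 CPM with the fast ramp (fit -0.57, edgeR adjusted p = 5.08e-05). Summed with Rnaset2b, its near-identical copy, the levels were 93.1, 85.7 and 88.9 CPM with the slow and 80.3, 86.6 and 84.6 CPM with the fast ramp. Those sums overlapped, and their log2 differences were -0.21, 0.02 and -0.07. An identifier that GENCODE M21 does not contain, ENSMUSG00000118642, had 11.95, 29.9 and 40.1 CPM with the slow and 3.85, 10.5 and 12.2 CPM with the fast ramp (fit -1.62, edgeR adjusted p = 2e-08).

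The 44 genes that were called lower, shared the direction in all 3 pairs and had a mean of at least 100 counts fell by a median of 0.29 in the long, 0.22 in the medium and 0.21 in the short pair, on the log2 scale. The largest of the 3 falls was in the long pair in 28 of the 44 genes (63.6%), in the medium pair in 10 and in the short pair in 6. Among all 1433 genes of that depth that were lower in all 3 pairs, the long pair held the largest fall in 33.7%. The order long, medium, short was found in 20 of the 44 (45.5%) and in 17.9% of the 1433. These shares are descriptions, since the call itself used the same pairs. Among the 14 genes that moved by 1.2-fold, which include the uncalled Hand2, Gm14097 and the pseudogene Ppp1ccb, 11 followed that order. In Rnf187, a RING finger protein, the long pair instead had the smallest fall (-0.14, against -0.36 in the medium pair), as in Btg1, an antiproliferative protein (-0.22, against -0.31 in the short pair).

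**Figure D3:**
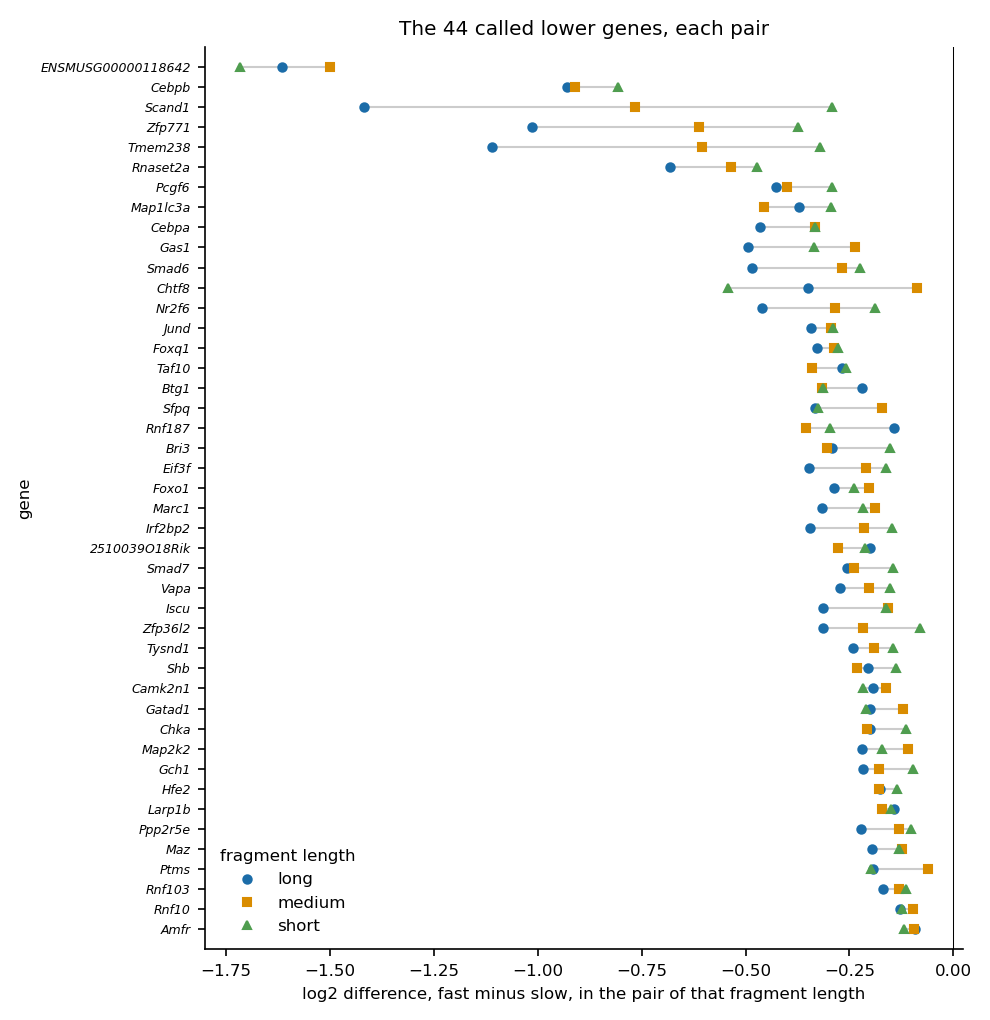
The 44 called lower genes, ordered by fitted difference, with the log2 difference of the long (circles), medium (squares) and short (triangles) pair on the horizontal axis. All 132 points lie below 0, and the long pair is farthest from 0 in 28 genes.

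Smaller falls also passed the test. The genes named in this and the previous paragraph, outside the naming rule, were picked after their values were seen. Marc1, a molybdenum-dependent reductase of the mitochondrial outer membrane, had 348.1, 345.6 and 353.1 CPM with the slow and 279.5, 303.1 and 303.8 CPM with the fast ramp (fit -0.24, edgeR adjusted p = 9.6e-05). The 3 slow libraries were close to one another, and all fast libraries were lower. Nr2f6, an orphan nuclear receptor, went from 92.8, 101.3 and 99.9 CPM to 67.5, 83.2 and 87.6 CPM (fit -0.31, edgeR adjusted p = 0.00593). Irf2bp2, a transcriptional co-repressor, went from 139.9, 143.5 and 141.7 CPM to 110.2, 123.6 and 127.9 CPM (fit -0.24, edgeR adjusted p = 0.00194). Neither gene overlapped between ramps. Smad6 (-0.33) and Smad7 (-0.22), the inhibitory members of the Smad family of TGF-beta and BMP signal transducers, were both called lower. So were Sfpq, a splicing factor of paraspeckles (-0.28), Zfp36l2, which promotes decay of AU-rich mRNAs (-0.21), Foxo1, a forkhead factor of insulin signalling (-0.24), and Hfe2, the iron regulator hemojuvelin (-0.16). DESeq2 did not call Smad6, Smad7, Zfp36l2, Foxo1 or Hfe2 (adjusted p = 0.0623 to 1). On the 15199 genes it called Foxo1 (adjusted p = 0.0199) and not Nr2f6 (0.0942). Smad6 lost its call in edgeR's test whichever of the 6 fast and slow libraries was left out (adjusted p up to 0.364). Single libraries also ended the calls of Smad7 and Zfp36l2 in 3 cases each, of Nr2f6 without the slow long library and of Hfe2 without the fast medium one.

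With the medium ramp, the called lower genes stood mostly between the slow and fast levels. The mean difference of the medium ramp from the slow ramp over the 3 pairs lay between 0 and the fitted fast difference in 41 of the 46 (89.1%), against 35.5% of all tested genes. The genes were chosen for a gap between slow and fast in the same libraries, so nothing is read from that share. Their median differences from slow were -0.06 for the medium and -0.24 for the fast ramp. Both differences share the slow libraries, so they are set side by side only. Cebpb had 39.2, 49.9 and 59.3 CPM in the long, medium and short libraries with the medium ramp, between its slow and fast values at each length. Cebpa had 533.0, 575.6 and 646.8 CPM, nearer to its slow values. Scand1 had 16.9, 13.3 and 13.7 CPM and was above its slow value in the long and short libraries. Over all genes, 6 were called between medium and slow (0.0395%), of which 4 were lower (0.0263%) and 2 higher (0.0132%), and 29 between fast and medium (0.191%), of which 26 were lower (0.171%) and 3 higher (0.0197%) with the fast ramp.

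Genes higher with the fast ramp were fewer in edgeR's test. Among them was mt-Co2 (ENSMUSG00000064354, chrM:7013-7696), the mitochondrially encoded subunit 2 of cytochrome c oxidase. It had 1681, 2084 and 1879 CPM with the slow and 2068, 2316 and 2133 CPM with the fast ramp. Each pair rose, while the groups overlapped because the medium slow library exceeded the long fast library. The fitted rise was 0.21 (SE 0.023, edgeR adjusted p = 0.000267). In the long, medium and short pairs of polyA libraries mt-Co2 differed by -0.63, 0.10 and 0.66. In pull-down libraries, whose slow long library had a low depth, the pairs differed by 14.69, -0.38 and 0.29. The part of read sharing with other gene copies in these values was not tested. Of 13 mitochondrially encoded mRNAs, mt-Co2 was the only one to pass, beside 0.0855% of all tested genes called higher. The other members ranged from -0.25 for mt-Atp6 to 0.23 for mt-Atp8, both subunits of ATP synthase, and 4 of 13 were higher in all 3 pairs, as were 14% of all tested genes. An unadjusted p under 0.05 was found in 4 of the 13 (30.8%), beside 6.67% of all. Summed, the 13 mRNAs held 39482, 34742 and 33900 CPM with the slow and 39003, 37644 and 36178 CPM with the fast ramp, a difference of -0.02 in the long, 0.12 in the medium and 0.09 in the short pair.

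Among the major urinary proteins, lipocalins that the liver secretes and that bind pheromones, 3 of 19 tested genes rose, beside 0.0855% of all tested genes. Mup22 had 2182.1, 2878 and 3022 CPM with the slow and 2386, 3202 and 3161 CPM with the fast ramp (fit 0.12, SE 0.016, edgeR adjusted p = 0.00351). Each fast library was above its slow partner, though the fragment lengths differed more than the ramps. Mup14 (0.12) and Mup7 (0.11) rose likewise, and the median of the list was 0.06. Mup7 lost its call with DESeq2 on 25055 genes (adjusted p = 0.067, against 0.0294 on the 15199 genes) and without any 1 of 5 of the 6 fast and slow libraries, and Mup14 without any 1 of 4 (edgeR adjusted p up to 0.18 and 0.118). In all 3 pairs 9 of the 19 were higher and 0 lower, against 14% and 13.6% of all tested genes, and 8 (42.1%) had an unadjusted p under 0.05, against 6.67%. These genes are near-identical copies, so the share of reads given to each is uncertain. Summed over 22 Mup genes the levels were 11431, 11699 and 11739 CPM with the slow and 11794, 12546 and 12001 CPM with the fast ramp, differences of 0.05, 0.10 and 0.03.

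The remaining called higher genes with at least 100 counts were Rps27, Chtf8 and Gm44805. Rps27 (ENSMUSG00000090733, chr3:90212522-90213651), a protein of the small ribosomal subunit, had 1.33, 1.59 and 18.4 CPM in the long, medium and short slow libraries and 2.72, 10.3 and 36.7 CPM in the fast ones (fit 1.32, SE 0.23, edgeR adjusted p = 0.014). It was highest in the short libraries with both ramps, and the size of its rise differed between pairs. The long, medium and short pairs differed by -1.78, -0.27 and 0.05 in polyA and by 1.01, 4.89 and 0.11 in pull-down libraries. Read sharing of Rps27 with other gene copies was not tested. In digestion libraries its fitted difference ranged from 0.99 without the fast medium library to 2.15 without the fast short one. The call was lost without the slow short library (1.82, edgeR adjusted p = 0.14) and with DESeq2 (adjusted p = 0.265). The symbol Chtf8, a subunit of an alternative clamp loader complex, stands on 2 identifiers whose exons share 2786 bases. ENSMUSG00000117748 rose from 7.09, 9.97 and 2.95 to 16.4, 13.6 and 14.8 CPM (fit 1.13, edgeR adjusted p = 0.014), and the other identifier fell by 0.32. The rise was not called with DESeq2 (adjusted p = 0.591) or without the slow long or slow short library (edgeR adjusted p = 0.179 and 0.0514). Their sum was 47.2, 45.3 and 47.3 CPM with the slow and 47.8, 46.8 and 45.3 CPM with the fast ramp, and the pairs of that sum differed by 0.02, 0.05 and -0.06. Gm44805, of whose exonic bases 84.4% belong also to the apolipoprotein gene Apoc2, rose by 0.36 (edgeR adjusted p = 0.00548; 0.164 without the slow long library, which ended the call). Of the 6 genes that moved upward by 1.2-fold in all 3 pairs, these were the 3 called ones.

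A further 8 called genes, 2 lower and 6 higher, had a mean under 100 counts, and in 5 of them all libraries of 1 ramp held at most 3 counts. In 4 of the 8, a single one of the 6 fast and slow libraries held all counts. Cphx3 held 65 counts in the long slow library and 0 in the other 5. Gm8203, a processed pseudogene, held 67 counts in the short fast library and 0 in the other 5. Hist1h2ao, a replication-dependent histone gene, held 27 and 30 counts in the medium and short fast libraries and 0 in the other 4. Of the 8, 2 had the same direction in all 3 pairs.

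The called lower genes were richer in G and C than the tested genes as a whole, which is given here as a description. The median exonic GC content of the 45 with an annotation was 54.8% (range 42.5% to 68.4%) against 48.9% over all tested genes. At least 60% GC was found in 15 of the 45 (33.3%) and in 3.01% of all tested genes. Among genes with a mean of at least 100 counts, the depth of nearly all the called lower ones, that share was 2.6%. The gap was also seen in the richest 200-base window of the longest transcript, whose median was 80% against 66%. That window reached 80% in 23 of 45 (51.1%), in 7.51% of all tested genes and in 8.72% of those with at least 100 counts. Genes of ordinary overall composition were among them: Rnf103, a ubiquitin ligase of the endoplasmic reticulum, had 42.5% GC but a window of 83%, and Irf2bp2 had 54.6% with a window of 92%. Among the 13 annotated genes that moved downward by 1.2-fold, the median GC was 61.7%, and 9 had at most 2 exons (69.2%, against 19.3% of all tested genes). Gch1, which makes a precursor of tetrahydrobiopterin, and Larp1b, an RNA-binding protein, fell without such a window, at 57.5% and 55%. Larp1b and Rnf103 were not called by DESeq2 (adjusted p = 1 for both), and lost their edgeR call in 6 of 6 and 5 of 6 cases when 1 library was left out. Of the 12 annotated called higher genes, 0 had a window of 80% or more.

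Across all genes the relation to GC content was slight within each length. Over 10251 genes with a mean of at least 100 counts, the log2 difference changed with exonic GC by -0.0186 per 10 percentage points in the long pair, -0.0175 in the medium pair and -0.00842 in the short pair. Spearman's rho across genes was -0.088, -0.093 and -0.044. The mean of the 3 slopes was -0.0148 with an SD of 0.00558. With genes from 10 counts, the slopes of the medium and short pairs were larger in size. With the richest 200-base window in place of exonic GC, rho was -0.157, -0.126 and -0.081. All genes of a pair share the same libraries, so these are descriptions of 3 pairs without a p.

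Medians by GC class were farthest from 0 in the class of 65% and more. In the 651 genes under 40% GC the median differences were 0.01, 0.02 and 0.00 in the long, medium and short pairs, and in the 1585 genes of 55% to 60% they were -0.01, 0.00 and 0.00. In the 250 genes of 60% to 65% they were -0.05, -0.02 and -0.03. In the 16 genes of 65% and more, a small class, they were -0.29, -0.18 and -0.18. The share of genes lower in all 3 pairs went from 9.22% under 40% GC to 18.3% at 55% to 60%, 31.2% at 60% to 65% and 62.5% from 65% up. Called lower genes made up 0 of 651, 0.442%, 4% and 25% of those classes. By richest window, 30.4% of the 724 genes at 80% to 85% were lower in all 3 pairs, against 25.9% of the 170 genes above that and 7.23% of the 678 genes under 55%. Without the genes of 60% GC and more, the slope was -0.0104 in the long, -0.0148 in the medium and -0.00418 in the short pair. With those genes it was -0.0186, -0.0175 and -0.00842, so it changed least in the medium pair.

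**Figure D4:**
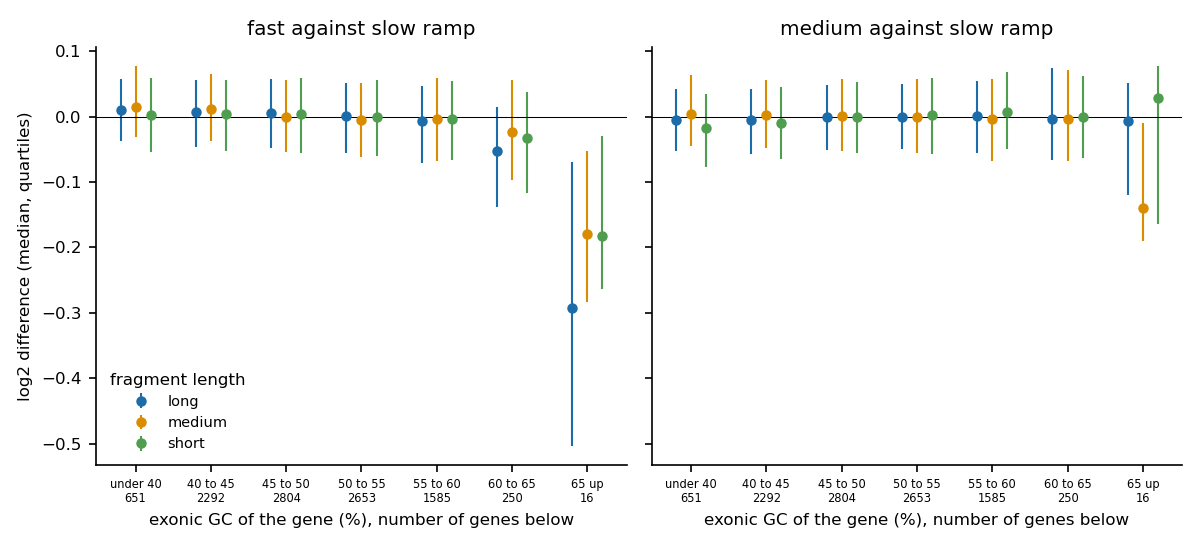
Median log2 difference with quartiles (vertical axis) by exonic GC class (horizontal axis, with the number of genes) in the long, medium and short pairs, for the fast (left) and the medium ramp (right) against the slow ramp. With the fast ramp the medians of the 60% to 65% class were -0.05, -0.02 and -0.03 and those of the 16 genes above it -0.29, -0.18 and -0.18, and with the medium ramp those of the 60% to 65% class were all 0.00 and those of the 16 genes -0.01, -0.14 and 0.03.

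The 16 genes of 65% GC and more did not all move. Of these, 10 were lower and 0 higher in all 3 pairs, while 13.9% of all 10251 genes with a mean of at least 100 counts were lower. Called were 4 of the 16, beside 0.388% of all tested genes: Cebpb, Scand1, Jund and Tysnd1, a peroxisomal protease (-0.20, edgeR adjusted p = 0.014). DESeq2 did not call Scand1 or Tysnd1 (adjusted p = 1 for both), and Tysnd1 lost its call without any 1 of 4 libraries. Sap30l, a subunit of a histone deacetylase complex (-0.31, edgeR adjusted p = 0.113), and Epop, a Polycomb-associated protein (-0.31, edgeR adjusted p = 0.524), were lower in each pair without passing. Rpph1, the RNA component of ribonuclease P, which had 67.1% GC and a mean of 41050 counts, differed by 0.05. Zfpm1, a cofactor of GATA factors with a window of 89.5%, differed by -0.09. Enho, which encodes the secreted peptide adropin, had a window of 85% and differed by -0.01.

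The 3 fast against slow slopes on GC in digestion libraries were smaller in size than those of the polyA and pull-down libraries for the same ramps and of unselected replicates, and overlapped in size with those of the other ramps in digestion libraries. For the medium against the slow ramp in digestion libraries they were 0.00814, -0.00906 and 0.0132 for long, medium and short fragments, with no common sign. For the fast against the medium ramp they were -0.0267, -0.00846 and -0.0217. These 3 comparisons share libraries and are given side by side. Between replicates of unselected liver RNA of one batch, prepared alike from 20 ng, the absolute slopes of 6 pairs were 0.0324 to 0.137 over up to 4068 genes. The sizes of the 3 fast against slow slopes in digestion libraries thus lay below the smallest of those replicate pairs. In polyA libraries the fast against slow slopes were -0.036, 0.116 and 0.151. In pull-down libraries they were -0.856, 0.169 and 0.0353, where the slow long library held 1126383 counts.

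**Figure D5:**
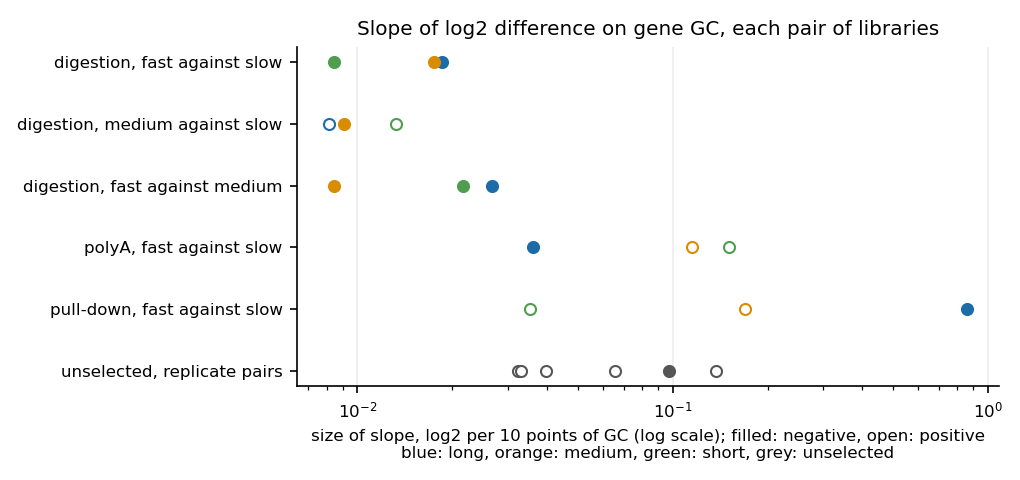
Absolute slope of the log2 difference on exonic GC, in log2 units per 10 points of GC on a log axis, 1 point per pair of libraries (filled negative, open positive). The 3 fast against slow digestion slopes, all negative, lie between 0.00842 and 0.0186, left of the 6 unselected replicate pairs at 0.0324 to 0.137.

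Measures over whole libraries did not separate the ramps. The count-weighted mean GC content was 48.72% ± 0.022 in the slow, 48.69% ± 0.051 in the medium and 48.68% ± 0.037 in the fast libraries (SD, n = 3 each). The fast library was lower by 0.072 and 0.073 points in the long and short pairs and higher by 0.028 points in the medium pair (exact permutation test of the trend over slow, medium and fast, 216 arrangements, two-sided, p = 0.287, adjusted over 8 measures 0.563). Counts in genes under 42% GC made up 14.6% ± 0.351 with the slow and 14.8% ± 0.252 with the fast ramp, higher in 3 of 3 pairs (exact permutation p = 0.185, adjusted 0.563). Counts in genes of 55% GC and more made up 17.1% ± 0.346 and 17.1% ± 0.403. The shares of mitochondrial mRNAs (3.61% and 3.75%), small structured RNAs (3.95% and 3.78%), histone genes (0.0395% and 0.0387%) and the 100 highest genes (40.1% and 40.4%) and the number of genes detected at equal depth (14090 and 14075) gave adjusted p-values of 0.563 to 0.667 in the same exact permutation test. With 3 pairs, an exact sign-flip permutation test of fast against slow alone cannot go below p = 0.25.

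In the genes of hepatocyte function the counts of calls were near those of all genes. Across 7 lists of plasma proteins, complement and coagulation factors, cytochrome P450 enzymes, the urea cycle, glucose metabolism, fatty acid oxidation and cholesterol synthesis, 0 of 144 tested genes were called in edgeR's test in either direction, 9 (6.25%) had an unadjusted p under 0.05 and DESeq2 called 0. Of all tested genes, 0.388% were called and 6.67% had an unadjusted p under 0.05. The fitted differences of the 144 genes lay between -0.13 and 0.06. The median was 0.01 for 29 plasma proteins, 0.02 for 26 cytochrome P450 genes and 0.00 for 11 urea cycle genes, beside 0.00 over all genes. Cps1, the first enzyme of the urea cycle, had 5745, 5767 and 5725 CPM with the slow and 5817, 5690 and 5701 CPM with the fast ramp. The fast values lay on both sides of the slow ones. Cyp3a11, a drug-metabolizing cytochrome P450, had 6265, 6593 and 6722 CPM with the slow and 6338, 6794 and 6734 CPM with the fast ramp (fit 0.02, edgeR adjusted p = 0.802). Glud1, glutamate dehydrogenase, had the lowest value of the urea cycle list at -0.07 (edgeR adjusted p = 0.187).

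Other lists gave few calls or none. Of 81 cytosolic ribosomal protein genes, Rps27 alone was called, 10 (12.3%) had an unadjusted p under 0.05 and the median of the list was 0.00. Of 57 replication-dependent histone genes, which have short GC-rich transcripts (median GC 57.9%), 12 were lower and 2 higher in all 3 pairs. That list had a median of -0.04 and 2 members with an unadjusted p under 0.05, and its only call was Hist1h2ao, described above. The list of KRAB-type zinc finger genes was taken by a range of Zfp symbols, without a check of domains. Its 52 tested genes, with a median GC of 39.0%, had 11 members higher and 1 lower in all 3 pairs. Their median was 0.04, with 0 calls in edgeR's test or by DESeq2 and 2 at an unadjusted p under 0.05. Of 76 nuclear genes of oxidative phosphorylation, 0 were called in edgeR's test or by DESeq2 and 2 had an unadjusted p under 0.05, with 12 higher and 7 lower in all 3 pairs. The 25 tested small structured RNAs had 0 calls in edgeR's test or by DESeq2, 1 unadjusted p under 0.05 and a median of -0.01. For all genes, 0.388% were called, 6.67% had an unadjusted p under 0.05, and 14% were higher and 13.6% lower in all 3 pairs.

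The same ramps were compared in polyA libraries, which took no part in choosing these genes. These libraries were made with another kit and carry the batch label 1, while digestion libraries carry 2, so method and batch cannot be told apart. In polyA libraries 42 of 14629 genes (0.287%) were called between fast and slow, 22 of them lower. Of 44 called lower digestion genes tested there, 0 were called in edgeR's test and 12 (27.3%) had an unadjusted p under 0.05, against 15.5% of all genes tested in polyA libraries. In direction, 29 were lower in the fit (65.9%, against 50.5% of all) and 14 were lower in all 3 pairs (31.8%, against 16.7% of all). Of the 13 testable genes that moved by 1.2-fold, 7 were lower in all 3 polyA pairs (53.8%).

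Cebpb differed in polyA libraries by -0.64 in the long, -0.27 in the medium and -0.18 in the short pair (fit -0.33, edgeR adjusted p = 0.107). Scand1 differed by -2.16, -1.23 and -0.17 in the same order (fit -0.99, edgeR adjusted p = 0.141), and Jund by -1.08, -0.35 and -0.21 (fit -0.46, edgeR adjusted p = 0.112). In all of these the long pair had the largest difference. In Zfp771 (-0.22, -0.51 and -0.004) and Foxq1 (-0.28, -0.33 and 0.15) the medium pair had it. Over all 238 genes of 60% to 65% GC in polyA libraries, the medians were -0.18 in the long, 0.08 in the medium and 0.14 in the short pair. Map1lc3a was instead higher in each polyA pair, by 0.03, 0.09 and 0.24. The difference between methods was tested itself: 0 of 15744 genes had a ramp effect that differed between digestion and polyA in edgeR's test, with 939 at an unadjusted p under 0.05. Without the pull-down library of low depth, which is part of the same fit, 4 genes differed: Marc1 (-0.23, edgeR adjusted p = 0.0311), Map1lc3a (-0.51, edgeR adjusted p = 0.0346), Rnaset2a (-0.58, edgeR adjusted p = 0.0346) and mt-Nd6, a mitochondrially encoded subunit of respiratory complex I. The 3 with values are called lower genes, whose digestion libraries had already chosen them. With all libraries, the difference was -0.55 for Cebpb (edgeR adjusted p = 0.751) and -0.51 for Map1lc3a (edgeR adjusted p = 0.162). The fast minus slow difference in count-weighted GC was 0.175 points in polyA libraries, against -0.0392 in digestion libraries (exact permutation test, two-sided, 20 arrangements, p = 0.2, adjusted over 2 comparisons 0.4, smallest possible 0.1).

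In pull-down libraries 0 of 14426 genes were called between the ramps in edgeR's test, with 324 at an unadjusted p under 0.05. The low depth of their slow long library limits that comparison. Cebpb differed by -2.61 in the long pair, which holds that library, and by -0.05 and 0.00 in the medium and short pairs (fit -0.37, edgeR adjusted p = 1). Cebpa differed by -1.27 in the long pair and by 0.01 in both other pairs (fit -0.42, edgeR adjusted p = 1), so that its fitted fall was as large as in digestion libraries but came from the long pair. Of 44 called lower digestion genes tested there, 0 had an unadjusted p under 0.05 in edgeR's test, against 2.25% of all. In direction, 14 were lower in both of those pairs (31.8%, against 27.8% of all tested genes), which is near the share of all genes. The ramp effect differed between digestion and pull-down in 4 genes (0.0254%), of which 0 were among the called lower genes. Without the slow long pull-down library it differed in 12 genes, and 6 of these were called lower genes: Cebpb (-0.76, edgeR adjusted p = 0.0288), Cebpa (-0.36, edgeR adjusted p = 0.0117), Marc1, Map1lc3a, Rnaset2a and Iscu, a scaffold protein of iron-sulfur cluster assembly (-0.24 to -0.60, edgeR adjusted p = 0.0117 to 0.0395). With that library kept, the difference was -0.60 for Cebpb (edgeR adjusted p = 0.997) and -0.02 for Cebpa (edgeR adjusted p = 1). The digestion side of these differences is the contrast that chose the genes.

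The test rests on 4 residual degrees of freedom, and counts of called lower genes moved when single libraries or whole lengths were left out. They were 25 without the slow long library and 28 without the fast long library. Without all short libraries the count was 30, without all long ones 34 and without all medium-length ones 66. Called genes can share reads with an overlapping gene: 19 of the 45 annotated called lower genes share exonic bases with another, 4 of them on the same strand, including 20.7% of the bases of Cebpb, 40.4% of Scand1 and 52.6% of Jund with genes on the opposite strand, and whether the counting used strand is not given in the sources used here.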

How the data were processed

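The deposited table holds estimated counts per gene, which the authors made with tools that include Salmon 1.9.0 and UMI-tools 1.1.1 on build GRCm38, per the submitters' processing notes. Whether duplicates were removed is not given in the sources used here. These expected counts were rounded to whole numbers. Of 51368 gene identifiers, 50820 matched GENCODE M21, from which symbols, positions and GC content (union of exons, from transcript sequences) were taken. The 548 others held at most 0.0622% of counts.

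Genes passing filterByExpr (15199) were tested with edgeR 4.0.16 (R 4.3.3; quasi-likelihood, TMM, ramp and fragment length as terms, 9 digestion libraries, Benjamini-Hochberg adjustment). DESeq2 1.42.0 was an alternative. CPM are TMM-scaled, and log2 values of single pairs carry a prior count of 2. Fragment length was the pairing, since the labels match libraries by it. A difference between methods was an interaction over 27 libraries. The procedures were run on simulated data, which for the ramp test had a common dispersion and no effect of fragment length. Nothing is read from that run for the calls given here. Named genes were the 10 largest called changes in each direction with 100 counts and 1 direction in all pairs, the 12 largest moves of at least 1.2-fold in all 3 pairs in each direction (fewer were found; unnamed, predicted and pseudogenes left out), and the 3 most abundant members of each list. Members and lists were chosen with earlier results of these data known.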

Additional observations from a re-analysis of the deposited data

Results flagged for a closer look

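The fast against slow ramp effect differed between digestion and pull-down libraries in 4 genes, by edgeR's interaction test. Ncl, the nucleolar protein nucleolin, differed by 0.41 on the log2 scale (edgeR adjusted p = 0.00938), with an effect of 0.03 in digestion and -0.37 in pull-down libraries. Its value was 0.41 without the pull-down library of low depth. Rps12-ps3, a ribosomal protein pseudogene, differed by 2.31 (edgeR adjusted p = 0.00292). In pull-down it had counts in the short libraries only, 669 with the slow and 189 with the fast ramp. Rpl36a-ps2, another such pseudogene, differed by 1.82 (edgeR adjusted p = 0.0128), likewise with 477 and 158 counts in the short pull-down libraries and 0 in the others. Gm8203 differed by a fitted 15.91 (edgeR adjusted p = 0.0148). That value depends on the prior count and is no measure of size, since it rests on 134 counts in 1 pull-down library and 67 counts in 1 digestion library, with 0 in the other 10 fast and slow libraries of the 2 methods. The part of read sharing between pseudogenes and their parent genes in these values was not tested.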

How the results depend on the processing

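Without the replicate block, that is with fragment length left out of the fit, 0 genes were called higher and 1 lower, and 1 of 34 named called genes with at least 100 counts kept its call. The counts of 13 higher and 46 lower became 22 higher in a fit of the 6 fast and slow libraries, 26 higher and 27 lower with DESeq2 on 25055 genes without the filter, of which 19 were among the 59, 13 higher and 18 lower with DESeq2 on the 15199 genes of edgeR's test (chosen after seeing the data), and 89 higher and 159 lower with no filter on low counts. Leaving out single libraries or lengths gave 11 to 26 higher and 25 to 66 lower. Of those 34 genes, 17 lost their call with DESeq2 on 25055 genes and 15 on 15199, 18 lost it when some single library was left out and 14 neither with the DESeq2 fit of 25055 genes nor without a library, while all 34 kept their direction under 16 alternatives. Genes that moved in all 3 pairs (6 higher, 14 lower) numbered 35 and 79 at 1.1-fold, 1 and 2 at 1.5-fold, 2 and 6 with at least 500 counts, and 15 to 22 and 33 to 36 in 2 pairs when a length was left out, which asks for fewer pairs. The GC slope was -0.0249 in the medium and -0.0185 in the short pair with genes from 10 counts, and -0.0104 in the long, -0.0148 in the medium and -0.00418 in the short pair with genes under 60% GC, the last chosen after seeing the data. Leaving out a length turned the sign of 4 library measures that had passed no test. The share of counts in genes of 55% GC and more then ranged from -0.44 to 0.0945 points (0.0847 without the short pair), that of histone genes from -0.00131 to 0.000101, that of the 100 highest genes from -0.0326 to 0.49, and genes detected from -35.5 to 10. Genes whose ramp effect differed between methods numbered 4 against polyA and 12 against pull-down without the pull-down library of low depth. They numbered 0 to 1 and 1 to 5 when a digestion library was left out. With 3 libraries a ramp, values of genes under about 100 counts rest on few reads, and the part of counting error in them was not tested.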
